A study of Mus musculus with 2 samples.

Results

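The genes described here are 8 iron handling genes of the mouse: Hmox1, Blvrb, Slc40a1, Spic, Fth1, Ftl1, Tfrc and Slc11a1. They were taken by gene symbol, and all 8 were found among the 32285 gene rows of both count matrices.

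Macrophages of the splenic red pulp and of the liver take up aged red blood cells and return their iron to the blood. Hmox1 (heme oxygenase 1) opens the heme ring, and Blvrb (biliverdin reductase B) is a reductase of the bile pigment pathway that follows. Slc40a1 encodes ferroportin, the exporter that releases iron from the cell, and Slc11a1 (Nramp1) moves metal ions across the phagosome membrane of macrophages and neutrophils. Spic is the transcription factor that red pulp macrophages require. Fth1 and Ftl1 encode the heavy and light chains of ferritin, the iron storage shell, and Tfrc encodes the transferrin receptor, by which dividing and hemoglobin-making cells take up iron.

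The data are UMI counts (unique molecular identifiers, 1 for each captured transcript) of single cells from female BALB/cAnNCrl mice aged 7 to 8 weeks that carried liver metastases of 4T1, a mouse mammary carcinoma line. According to the methods, the tumor was seeded through a part of the spleen that was then removed, so these mice kept the other part of the spleen. Cells were collected 5 days after treatment with vehicle (hashtag A0301), low-dose CBL0137 (A0305) or high-dose CBL0137 (A0310), a curaxin drug given by hepatic arterial infusion, with 2 mice pooled. There were 2 droplet libraries, which the labels call liver and spleen. Each mixed the 3 groups, so each group was 1 pooled sample per library. What amount of drug low and high dose stood for was not stated in the labels. The methods name A0305 in the list of hashtag barcodes but not in the staining step, and they describe CD11b+ bead isolation where the labels describe density gradient leukocytes. Both libraries held T cell-like and B cell-like cells.

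The mRNAs of 4 of the genes carry the hairpin that iron regulatory proteins bind, the iron-responsive element, and its sequences are shown because they set these 4 apart from the other members. The letters searched, on the transcript strand only, were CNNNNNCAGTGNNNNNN, with any base but G after CAGTG and with the 5 bases on each side able to pair, G with T included. Capitals mark the loop letters CAGTG. The sites lie in the 5′ UTR of Slc40a1 (chr1:45925466-45925492, minus strand), Fth1 (chr19:9982733-9982759, plus strand) and Ftl1 (chr7:45459780-45459806, minus strand), and in the 3′ UTR of Tfrc (plus strand), on GRCm38 (mm10) with the GENCODE mouse release M21 annotation.
Slc40a1: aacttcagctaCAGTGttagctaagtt
Fth1: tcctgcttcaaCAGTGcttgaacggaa
Ftl1: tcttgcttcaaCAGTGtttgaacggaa
Tfrc, chr16:32631220-32631246: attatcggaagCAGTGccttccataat
Tfrc, chr16:32631599-32631625: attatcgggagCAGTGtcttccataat
Tfrc, chr16:32631664-32631690: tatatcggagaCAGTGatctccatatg
Tfrc, chr16:32631711-32631737: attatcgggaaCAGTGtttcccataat

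The same letters were found in a 5′ UTR of 23 of 21901 protein-coding genes (0.105%) and in a 3′ UTR of 100 (0.457%). A match describes the sequence, and binding was not measured. No match was found in the UTRs of Hmox1, Blvrb, Spic and Slc11a1. The genes themselves lie as follows on the same build, with strands in parentheses: Hmox1 at chr8:75093621-75100589 (plus), Blvrb at chr7:27447978-27466144 (plus), Slc40a1 at chr1:45908068-45926523 (minus), Spic at chr10:88674772-88685015 (minus), Fth1 at chr19:9980598-9985098 (plus), Ftl1 at chr7:45457944-45459884 (minus), Tfrc at chr16:32608920-32632794 (plus) and Slc11a1 at chr1:74375195-74386062 (plus).

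The tissue labels went against the marker genes, and the names of the deposited files give the opposite tissue for each library. The liver-labelled library held 0 UMIs of Clec4f, which marks Kupffer cells, and 6 UMIs of a list of 9 hepatocyte genes, while its Ighd level was 83.1 CPM (UMIs per 1000000 UMIs). The spleen-labelled library held Clec4f at 124.5 CPM and the hepatocyte list at 98.3 CPM. Libraries are therefore named by their labels throughout, and neither label is used as a tissue. A single hashtag was assigned to 8435 of 9591 barcodes in the liver-labelled library (3103 vehicle, 3194 low dose, 2138 high dose) and to 2988 of 4830 in the spleen-labelled library (822, 1301 and 865), where 1627 barcodes carried no hashtag call. With another caller, MULTIseqDemux, the high-dose group of that library had 2069 cells at a median of 2910 UMIs in place of 865 at 7930, and its Kupffer cell-like cells 145 in place of 40, so the size and depth of this group rest on the caller. The other groups had 676 and 1119 cells with it. All barcodes held 79585807 gene UMIs in the first library and 35672251 in the second, with medians of 4673 and 3368.5 per barcode. The libraries shared 15 barcodes. Cells were clustered without the iron genes and named from marker lists, each name ending in "-like". With 1 pooled sample per group no test could be made and no p-value is given, and every interval below (95%) covers counting error only, not differences between mice or preparations. Values are UMIs summed over the cells of a class, per 1000000 UMIs of that class (CPM). They depend on capture near the 3′ end, so they are compared within a gene and not between genes.

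In the liver-labelled library, 7 of the 8 genes were highest in a class of 183 red pulp-type macrophage-like cells, which made up 2.17% of cells with 1 hashtag. This class was led by Vcam1 and the C1q genes, and 5 of its 6 red pulp markers were raised. The red pulp list stood at 4349, 4156 and 2598 CPM in its vehicle, low-dose and high-dose cells. It was higher in the Kupffer cell-like class of the spleen-labelled library, at 11590, 9705 and 7026 CPM. The list thus does not set the 2 classes apart. Spic was at 651 CPM there, against 16.4 in monocyte-like and 7.32 in B cell-like cells. Hmox1 was at 2685 CPM against 127 in monocyte-like cells, the next class, and 78.4 in neutrophil-like cells. Slc40a1 was at 1117 CPM and came next in neutrophil-like cells, at 205 CPM, and immature neutrophil-like cells, at 55.4 CPM. For each of these 3 genes the macrophages, the next class and the class after it had separate intervals. Blvrb was at 441 CPM and was followed by the erythroid-like cluster (197 CPM), led by Car1, Car2 and Myb and also holding Cd34 and Mpo, and by B cell-like cells (123 CPM). Slc11a1 was at 155 CPM in the macrophages, 62.9 in neutrophil-like and 52.8 in monocyte-like cells. Fth1 was at 10000 CPM in the macrophages and 5522 in the whole neutrophil-like class, but at 10810 CPM in neutrophil-like cluster 3, of 540 cells. In the vehicle, clusters 3 and 4 of that class had Fth1 at 11700 and 10720 CPM, above the macrophages at 7415 CPM. Tfrc was the exception, highest of the named classes in the erythroid-like cluster at 97.9 CPM (62.1 to 146 over the 3 groups). The next classes for Tfrc, NK cell-like (27.9 CPM), red pulp-type macrophage-like (21.4 CPM) and granulocyte progenitor-like cells (20.2 CPM), had overlapping intervals. Within the B cell-like class (18.7 CPM) cluster 22, of 56 cells led by Vpreb3, had Tfrc at 117 CPM. Of these cells 55 were vehicle cells, and in the vehicle the erythroid-like cluster also had Tfrc at 117 CPM. The unnamed cluster 12 had it at 71.3 CPM.

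In the spleen-labelled library, 6 of the 8 genes were highest in 79 Kupffer cell-like cells, 2.64% of cells with 1 hashtag, in which all 6 Kupffer markers were raised. Slc40a1 was at 3340 CPM there and at 156, 132 and 124 CPM in the neutrophil-like, other macrophage-like and endothelial cell-like classes, whose intervals overlapped from each to the next. Hmox1 was at 2157 CPM, with 714 CPM in a further class of 223 macrophage-like cells, called other macrophage-like here. Arg1, Ccl8, Pf4 and Mmp12 were among its leading genes. Spic was at 226 CPM in the Kupffer cell-like and 18.1 CPM in the other macrophage-like class. Blvrb followed the same order at 464 and 214 CPM, as did Slc11a1 at 312 and 165 CPM and Ftl1 at 11600 and 9647 CPM. Fth1 departed from it. It was highest in 4T1 tumor or epithelial cell-like cells (12900 CPM) and other macrophage-like cells (12790 CPM), whose intervals overlapped, then in neutrophil-like cells (11010 CPM) and only then in Kupffer cell-like cells (7900 CPM). Tfrc was highest in plasmacytoid dendritic cell-like cells, at 162 CPM from 30 UMIs in 25 cells, and next in 4T1 tumor or epithelial cell-like cells at 35.0 CPM.

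**Figure D1:**
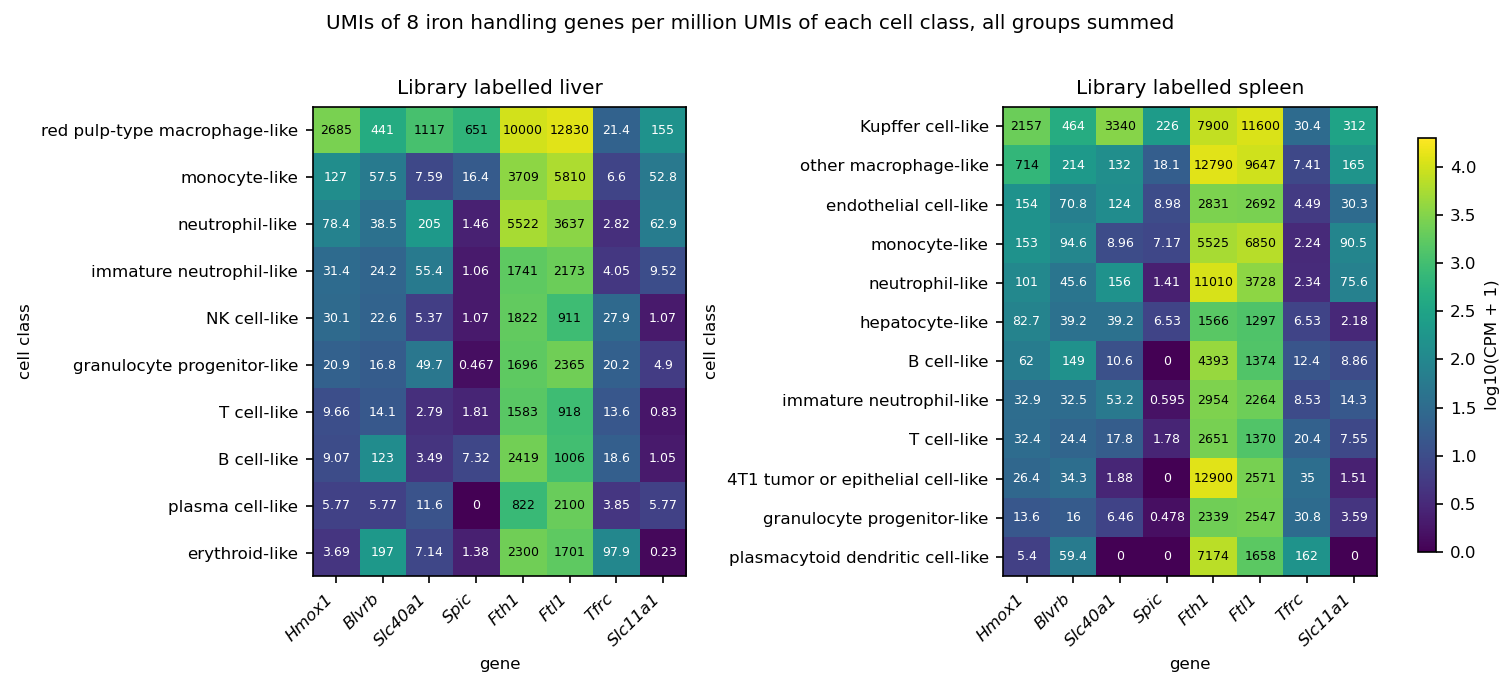
CPM of the 8 genes in each named cell class, all groups summed, with colour on a log10(CPM + 1) scale; rows are ordered by Hmox1. Red pulp-type macrophage-like cells (Hmox1 2685 CPM, Spic 651 CPM) and Kupffer cell-like cells (Slc40a1 3340 CPM) head their libraries, and colours are comparable down a column, not between genes.

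A high level in a rare class and a large share of all transcripts are different quantities. In the liver-labelled library the macrophages held 59.1% of the Spic UMIs of cells with 1 hashtag, 30.8% of Hmox1, 9.81% of Slc40a1 and 6.34% of Blvrb. Neutrophil-like cells, 31.8% of the cells, held 74.4% of Slc40a1, 71.5% of Slc11a1, 52.9% of Fth1 and 42.3% of Ftl1 UMIs. The erythroid-like cluster held 36.6% of Tfrc and 23.9% of Blvrb UMIs with 1.39% of the cells. In the spleen-labelled library Kupffer cell-like cells held 63.6% of Slc40a1 and 63.0% of Spic UMIs, while the other macrophage-like class held the larger part of Hmox1 (43.0% against 31.6%). Tfrc UMIs there were spread over granulocyte progenitor-like (28.4%) and 4T1 tumor or epithelial cell-like cells (20.4%), and Fth1 over neutrophil-like (24.6%), other macrophage-like (24.4%) and 4T1 tumor or epithelial cell-like cells (17.9%).

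**Figure D2:**
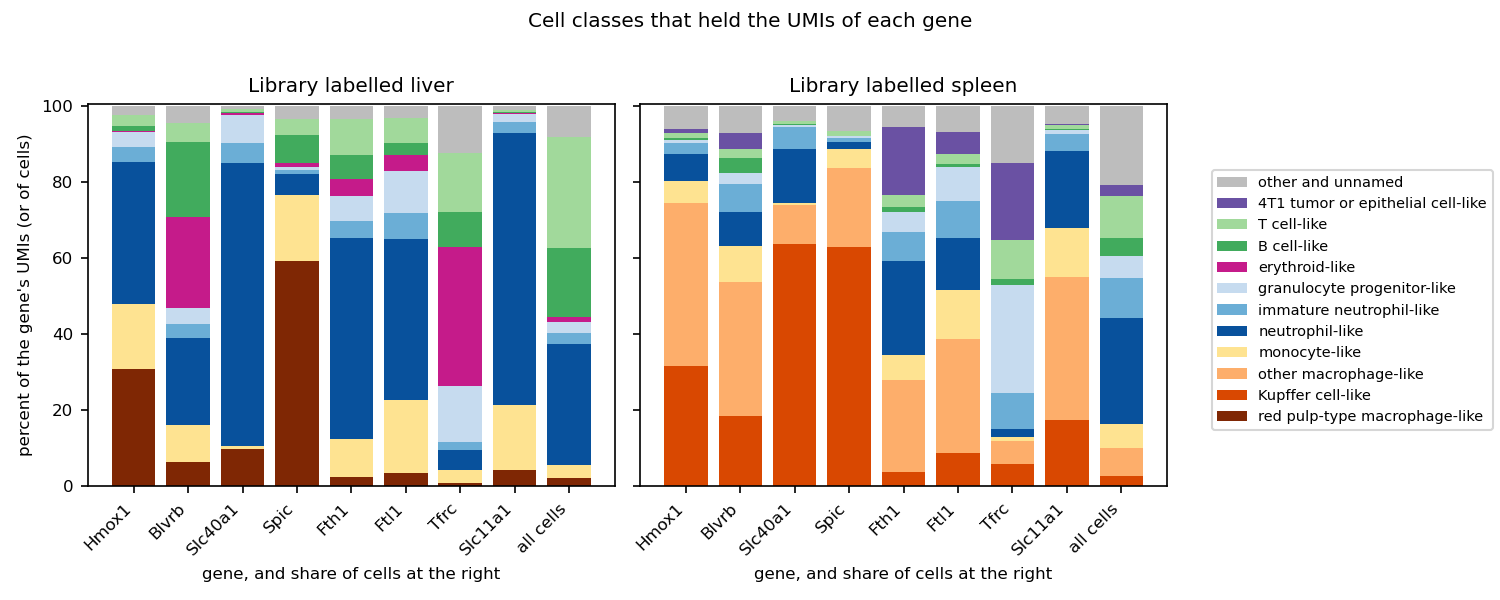
Percent of each gene's UMIs held by each cell class (stacked bars adding to 100%), with the share of cells as the last bar. In the liver-labelled library neutrophil-like cells held 74.4% of Slc40a1 UMIs and the macrophages 59.1% of Spic UMIs, and in the spleen-labelled library Kupffer cell-like cells held 63.6% of Slc40a1 UMIs.

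Shares of cells with a UMI were compared after every cell was thinned to 500 UMIs, since the classes differed in depth. Of the red pulp-type macrophage-like cells, 67.8% (interval 60.5% to 74.5%) then carried a UMI of Hmox1, 35.0% of Slc40a1 and 32.2% of Spic. In T cell-like cells of the same library, which should lack these transcripts, the shares were 0.448%, 0.204% and 0 of 2453 cells, with an upper limit of 0.150% for Spic. Of the Kupffer cell-like cells 83.5% carried Slc40a1 (73.5% to 90.9%), 43.0% Hmox1 and 11.4% Spic, against 0.599%, 0.898% and 0.299% in T cell-like cells. Slc40a1 was carried by 15.3% of neutrophil-like cells in the liver-labelled library and 8.67% in the spleen-labelled library, both above the T cell-like share, whereas Spic was seen in 0.0373% and in 0 of 830 of them. Without thinning, the T cell-like shares for Hmox1, Slc40a1 and Spic were 2.73%, 1.35% and 0.775% in the liver-labelled library (median depth 4869 UMIs in T cell-like, 1457 in red pulp-type macrophage-like and 4906.5 in neutrophil-like cells) and 8.98%, 3.29% and 0.898% in the spleen-labelled library (4406.5 UMIs in T cell-like, 10645 in Kupffer cell-like and 3695 in neutrophil-like cells).

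Cells with UMIs of all 3 genes were counted in each macrophage-like class. Spic, Slc40a1 and Hmox1 were all present in 71 of 183 red pulp-type macrophage-like cells (38.8%), at a median depth of 1457 UMIs. They were all present in 56 of 79 Kupffer cell-like cells (70.9%), at a median depth of 10645 UMIs. In the other macrophage-like class, at 14056 UMIs, the share was 13 of 223 (5.83%). Of the cells with a Spic UMI, 73 of 115 (63.5%) also had Slc40a1 in the red pulp-type macrophage-like class and 59 of 59 in the Kupffer cell-like class. Among all cells of these classes, with or without Spic, Slc40a1 was seen in 111 of 183 and in 78 of 79. Cells with Spic thus carried Slc40a1 at about the share of their class. These shares are not thinned, and depth moves with them.

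The treatment groups were compared within each class to ask whether iron handling transcripts differed after CBL0137. A gene was set against a fold of 2 where both groups together held at least 50 UMIs of it, and is then called tested, although no significance test was made. In red pulp-type macrophage-like cells (63 vehicle, 57 low dose and 63 high dose cells) Hmox1 stood at 1961 CPM in the vehicle, 3516 at the low dose and 2479 at the high dose. Both doses were above the vehicle, the low dose most: the log2 ratio was 0.84 (0.67 to 1.02) at the low dose and 0.34 (0.11 to 0.57) at the high dose. Spic, at 428, 810 and 786 CPM, was above the vehicle by 0.92 (0.54 to 1.31) and 0.88 (0.42 to 1.33). With every cell thinned to 500 UMIs, the share of cells with a Spic UMI was 31.7% in the vehicle, 29.8% at the low and 34.9% at the high dose, with intervals that overlapped, so the higher CPM did not appear as a higher share of cells. Hmox1 was then seen in 63.5%, 73.7% and 66.7% of the cells, also with overlapping intervals.

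Slc40a1 in the same cells did not follow Hmox1 and Spic. It was at 1004, 1440 and 687 CPM, with log2 ratios of 0.52 (0.26 to 0.78) and -0.55 (-0.96 to -0.15). A single low-dose cell held 97 of the 297 Slc40a1 UMIs, and without the cell with most Slc40a1 UMIs in each group the ratios were 0.18 (-0.11 to 0.48) and -1.02 (-1.52 to -0.55). The exporter was below the vehicle at the high dose both ways. At the low dose its interval left out 0 only with that cell. Thinned to 500 UMIs, 49.2% (36.4% to 62.1%) of vehicle cells carried Slc40a1, against 29.8% (18.4% to 43.4%) at the low and 25.4% (15.3% to 37.9%) at the high dose. At the low dose the share of cells thus lay below the vehicle while the summed level lay above it, so no low-dose direction is read. Of the ferritin chains, Fth1 was at 7415, 12100 and 11050 CPM (log2 ratios 0.71 and 0.58) and Ftl1 at 11470, 12870 and 15580 CPM (0.17 and 0.44). Both ferritin chains were above the vehicle at both doses, with intervals apart from 0. Blvrb, at 404, 446 and 508 CPM, had ratios of 0.14 and 0.33 with intervals that spanned 0. Slc11a1 had 29, 45 and 6 UMIs and Tfrc 3, 8 and 0 UMIs, too few at the high dose for a ratio.

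No member passed a fold of 2 in these cells, of 6 with enough UMIs at the high dose and 7 at the low dose. Among all genes tested, 5.89% passed at the high dose and 5.56% at the low dose. The median log2 ratio of the members was 0.39 at the high and 0.65 at the low dose, beside 0.03 and 0.06 over all genes tested. The medians rest on unlike sets, so they are not compared between the doses. Slc11a1 counted at the low dose only, and its ratio there, 0.65 (-0.06 to 1.37), was the low-dose median. Depth moved with the groups, with a median of 1602, 2846 and 857 UMIs per cell, and so did markers of other cells. The erythroid list of 11 genes stood at 254.7, 1479 and 109.5 CPM, with 280 of its low-dose UMIs in 3 cells. The neutrophil list of 9 genes stood at 1605, 6673 and 2100 CPM, with 800 of its 1376 low-dose UMIs in 1 cell, and the T cell list of 7 genes at 1994, 1901 and 2051 CPM in 19, 21 and 10 cells. All 9 hepatocyte genes were at 0. The Kupffer list of 6 genes stood at 1028, 2386 and 1274 CPM, in the same order as Hmox1, and the red pulp list of 6 genes at 4349, 4156 and 2598 CPM, lowest at the high dose as was Slc40a1. Among cells with at most 1 erythroid UMI, Hmox1 still stood at 2080, 3538 and 2500 CPM (log2 ratios 0.77 and 0.27), and Spic at 431, 761 and 793 CPM. The part of the neutrophil, T cell, Kupffer and red pulp transcripts in these values was not tested.

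In Kupffer cell-like cells the vehicle group was small, with 10 cells against 29 at the low and 40 at the high dose, and the median depth was 3472, 6311 and 14478.5 UMIs. The median share of mitochondrial UMIs was 11.6%, 7.67% and 8.53%, highest in the vehicle. With the cell filter described below, which asks for under 10% mitochondrial UMIs, the class had 3, 20 and 25 cells. Slc40a1 was nearly level, at 3662, 3524 and 3243 CPM, with log2 ratios of -0.06 (-0.29 to 0.19) and -0.18 (-0.40 to 0.05). Its counting intervals are narrow enough to leave out a fold of 2 either way. Hmox1 was at 1448, 2932 and 1915 CPM, with a ratio of 1.02 (0.66 to 1.39) at the low dose and 0.40 (0.05 to 0.77) at the high dose. Thinned to 500 UMIs, Hmox1 was seen in 3 of 10 vehicle cells, 12 of 29 low-dose cells (41.4%) and 19 of 40 high-dose cells (47.5%), with overlapping intervals and the high dose above the low, so no order of the doses is read. The low-dose value came down to 0.86 without the cell with most Hmox1 UMIs in each group and to 0.40 as a mean over cells. Blvrb had 7, 116 and 289 UMIs (145, 497 and 477 CPM) and log2 ratios of 1.78 (0.69 to 3.13) and 1.72 (0.66 to 3.05), so the vehicle value, and with it both ratios, rests on 7 UMIs.

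The storage genes of Kupffer cell-like cells lay above the vehicle by less than a fold of 2. Fth1 was at 6352, 8934 and 7625 CPM (log2 ratios 0.49 and 0.26) and Ftl1 at 8689, 12490 and 11480 CPM (0.52 and 0.40). Spic was at 269, 330 and 183 CPM and Slc11a1 at 186, 313 and 322 CPM, both with intervals that spanned 0. Tfrc had 0, 7 and 20 UMIs. Past a fold of 2 were 1 of 7 members at the high dose (Blvrb), where 20.0% of all genes tested passed, and 2 of 7 at the low dose (Blvrb and Hmox1), where 10.0% passed. A single low-dose cell held 890 of the 895 erythroid UMIs of the class. Without it Hmox1 and Blvrb had ratios of 0.96 and 1.61 at the low dose. The neutrophil list had 46, 366 and 4375 UMIs, 2933 of them in 1 high-dose cell, and its part in these values was not tested.

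The other macrophage-like class (54, 85 and 84 cells) differed from the Kupffer cell-like class in Slc40a1 and Fth1. Slc40a1 was at 137 CPM in the vehicle, 21.5 at the low dose and 210 at the high dose, from 102, 26 and 354 UMIs. Its log2 ratio was -2.67 (-3.35 to -2.04) at the low dose and 0.62 (0.30 to 0.95) at the high dose, and without the cell with most Slc40a1 UMIs in each group -2.66 and 0.46. The low dose was below both other groups for ferroportin. In these cells the megakaryocyte list of 5 genes was also lowest at the low and highest at the high dose (988, 532 and 1698 CPM). So were the NK cell list of 6 genes (106, 47.9 and 462 CPM) and the T cell list (309, 250 and 374 CPM). The red pulp list (369, 283 and 393 CPM) and the general macrophage list (9710, 9292 and 11630 CPM) had the same order. The Kupffer list did not, at 181.2, 287.1 and 317.5 CPM. The part of these lists in the Slc40a1 values was not tested. Pf4, a gene of the megakaryocyte list, was itself a leading gene of this class, so that list does not mark other cells alone here. Fth1 was at 8340, 17600 and 11300 CPM, 1.08 (1.04 to 1.12) above the vehicle at the low dose on the log2 scale and 0.44 at the high dose. Hmox1 stood at 566, 632 and 839 CPM and Blvrb at 179, 197 and 241 CPM, both highest at the high dose. Ftl1 was at 8705, 9535 and 10140 CPM, Slc11a1 at 145, 183 and 160 CPM, Spic at 20.1, 12.4 and 21.4 CPM and Tfrc at 8.05, 6.60 and 7.71 CPM.

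Past a fold of 2 in that class were 2 of 6 members at the low dose (Fth1 higher, Slc40a1 lower), where 2.88% of all genes tested passed, and 0 of 7 at the high dose, where 3.13% passed. The comparison of this class was added after its values were seen. The neutrophil list moved with the groups here too, at 953, 6621 and 5441 CPM, with 2474 of 8025 low-dose UMIs in 1 cell. Its part in the Fth1 difference was not tested.

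Summing both macrophage-like classes of the spleen-labelled library gave other values of Slc40a1. At 352, 587 and 1012 CPM, its log2 ratio was 1.53 (1.35 to 1.71) at the high dose, although neither class alone reached a fold of 2 upward. Kupffer cell-like cells, in which Slc40a1 was highest, were 10 of 64 macrophage-like cells in the vehicle and 40 of 124 at the high dose. The ratio was 0.74 as a mean over cells. It was the 1 member of 7 past a fold of 2 at the high dose, with 4.50% of all genes tested, and 0 of 7 passed at the low dose, with 3.11%. More Kupffer cell-like cells and more RNA per cell cannot be told apart in such a sum alone. Within the classes the high-dose ratio was -0.18 in Kupffer cell-like and 0.62 in other macrophage-like cells. The part of the mix of classes in the summed ratio was not tested.

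**Figure D3:**
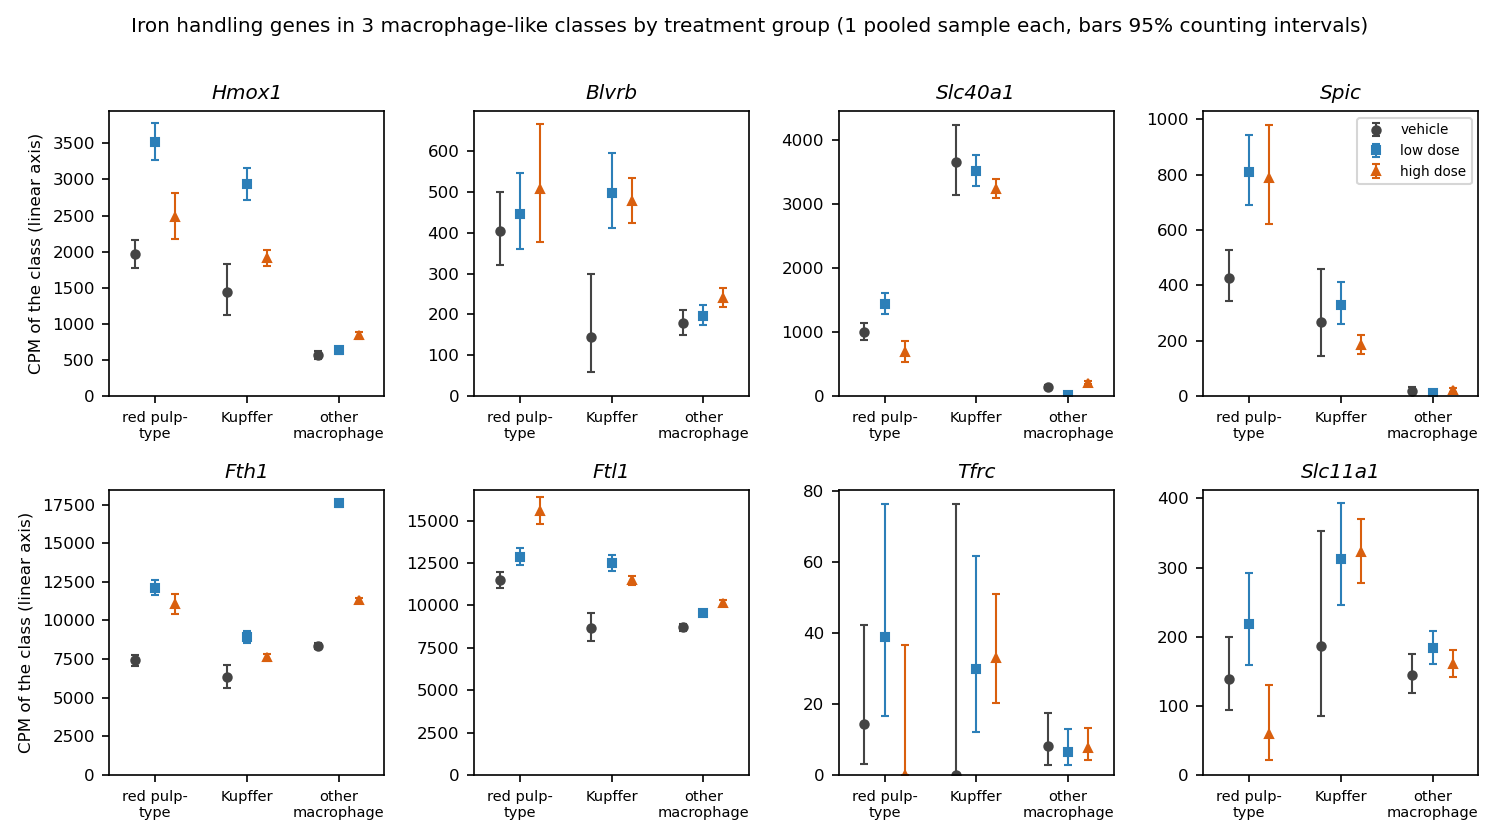
CPM of each gene on linear axes from 0 in 3 macrophage-like classes, by treatment group (1 pooled sample each); bars are 95% Poisson intervals of counting. Summed Hmox1 was highest at the low dose in red pulp-type macrophage-like (3516 CPM) and Kupffer cell-like cells (2932 CPM). In Kupffer cell-like cells the thinned share of cells with Hmox1 was higher at the high dose, so no order of the doses is read there. Slc40a1 of the other macrophage-like class was lowest at the low dose (21.5 CPM).

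Neutrophil-like cells were the largest source of Slc40a1 in the liver-labelled library. Over 1319 vehicle, 1184 low-dose and 177 high-dose cells, Slc40a1 was at 233, 213 and 110 CPM, with log2 ratios of -0.13 (-0.22 to -0.04) and -1.09 (-1.25 to -0.93). Hmox1 was at 90.4, 77.0 and 50.5 CPM, Fth1 at 6046, 5382 and 4487 CPM and Ftl1 at 3863, 3535 and 3298 CPM. For all 4 genes the order was vehicle, low dose, high dose. The median log2 ratio of the members tested was -0.37 at the high and -0.13 at the low dose. Over all genes tested it was near these values, at -0.44 and -0.13, so the order is not read as particular to the members. Slc11a1 was at 58.1, 74.1 and 47.1 CPM, highest at the low dose, and Blvrb nearly level at 38.8, 37.1 and 41.2 CPM. Tfrc was at 3.84, 2.29 and 1.45 CPM and Spic at 8, 19 and 4 UMIs. Slc40a1 was the only member past a fold of 2 at the high dose, 1 of 6, where 19.7% of all genes tested passed and the median of all genes was -0.44. At the low dose 0 of 7 passed, where 1.76% of all genes did. The median depth was 3928, 5189.5 and 17977 UMIs per cell. With the 20 most abundant genes left out of the totals the Slc40a1 ratio was -0.90, and as a mean over cells -1.49.

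The neutrophil-like clusters that held most Slc40a1 were those with few high-dose cells. Clusters 3, 4 and 5 had Slc40a1 at 503, 476 and 312 CPM and Fth1 at 10810, 9076 and 7831 CPM, and held 27.4%, 16.1% and 23.6% of the vehicle cells. They held 0.0%, 0.565% and 7.34% of the high-dose cells. Clusters 8 and 9, at 200 and 68.8 CPM of Slc40a1, held 38.4% and 41.8% of the high-dose cells. Within a cluster the high-dose ratio of Slc40a1 was -0.41 in cluster 8, 0.37 in cluster 9, -1.51 in cluster 5 (13 high-dose cells) and 0.01 in cluster 17 (12 high-dose cells). That of Fth1 was -0.03, 0.35, 0.15 and 0.21 in the same clusters. Slc40a1 thus did not keep 1 direction within clusters. At the low dose the Slc40a1 ratio lay between -0.12 and 0.35 over all 7 clusters.

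**Figure D4:**
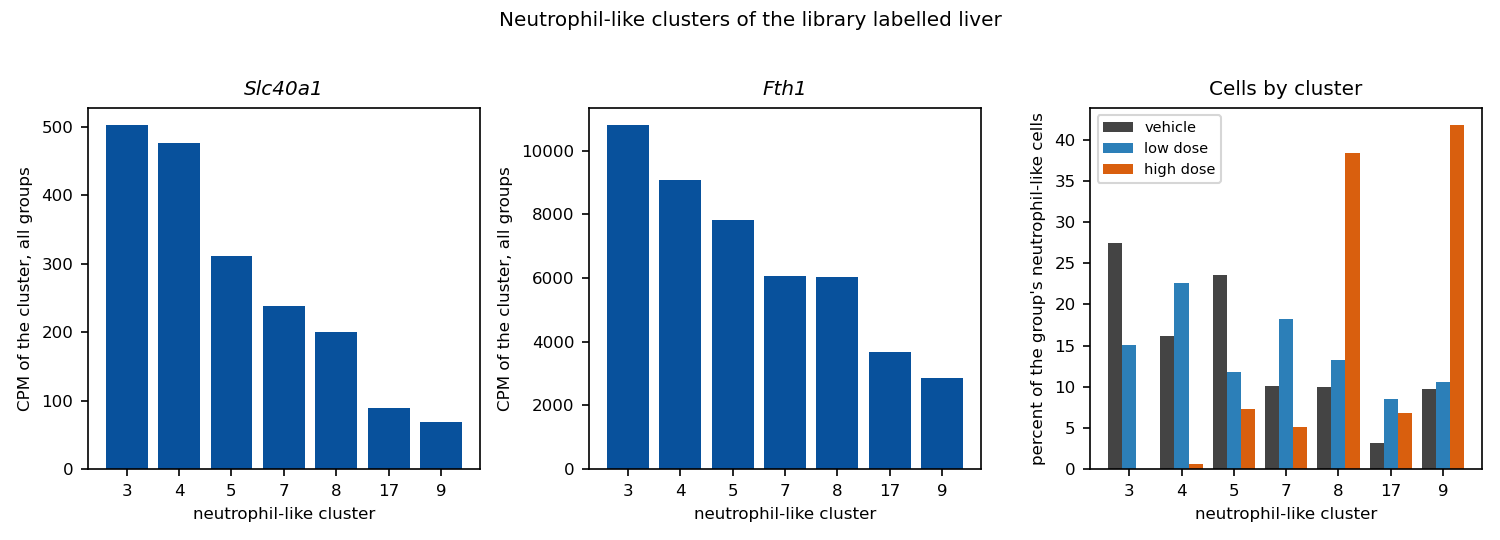
Slc40a1 and Fth1 (CPM of each neutrophil-like cluster, all groups) in the liver-labelled library, and the percent of each group's neutrophil-like cells in each cluster. Cluster 3, with 503 CPM of Slc40a1, held 27.4% of vehicle and no high-dose cells, and cluster 9, with 68.8 CPM, held 41.8% of high-dose cells.

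In the spleen-labelled library the neutrophil-like cells (255, 488 and 87) differed by group in Fth1. It was at 11220 CPM in the vehicle, 12810 at the low dose and 6785 at the high dose, with log2 ratios of 0.19 (0.16 to 0.22) and -0.73 (-0.77 to -0.68). Here, too, the groups filled different clusters. Cluster 3, with Fth1 at 5945 CPM, held 80.5% of high-dose and 25.9% of vehicle cells, and within it the high-dose ratio was -0.10. In cluster 0, with 11 high-dose cells, it was -0.34 (-0.44 to -0.24). Cluster 13, with Fth1 at 18790 CPM, held 24.4% of low-dose and 0.784% of vehicle cells. Within clusters 0, 3 and 16 the low-dose ratio was -0.27, -0.10 and -0.08, below 0 in each, while over all neutrophil-like cells it was above 0. Cluster 16, of 55 cells, had the highest Fth1 of the neutrophil-like clusters, at 38190 CPM, and the highest Hmox1, at 636 CPM.

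Summed over the class, the other members of these neutrophil-like cells lay as follows. Slc40a1 was at 142, 157 and 173 CPM, with 60 of its 163 high-dose UMIs in 1 cell. Without the cell with most of these UMIs in each group, its high-dose ratio went from 0.28 to -0.31, with intervals that spanned 0 both times. Ftl1 was at 3753, 3876 and 3370 CPM and Hmox1 at 93.9, 107 and 98.4 CPM. Slc11a1 was at 60.2, 83.2 and 79.4 CPM, again higher at the low dose than in the vehicle (0.47, 0.07 to 0.88). Blvrb was at 48.1, 38.9 and 57.2 CPM. Spic had 0, 3 and 3 UMIs and Tfrc 1, 8 and 1 UMIs. Of 6 members tested at each dose 0 passed a fold of 2, where 9.08% of all genes passed at the high and 2.29% at the low dose.

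Within cluster 3, which held most of the high-dose cells, Hmox1, Slc11a1 and Slc40a1 had higher high-dose ratios than in the class sums. Hmox1 was at 43.2 CPM in the vehicle and 91.2 at the high dose (log2 ratio 1.08, 0.44 to 1.75), Slc11a1 at 37.2 and 80.1 CPM (1.10, 0.42 to 1.83) and Slc40a1 at 83.4 and 166 CPM (0.99, 0.54 to 1.47). A single high-dose cell of that cluster, of 31422 UMIs, held 60 of its 135 Slc40a1 UMIs, 15 of 74 Hmox1 UMIs and 10 of 65 Slc11a1 UMIs. Without the cell with most UMIs of the gene in each group the ratios were 0.30 (-0.23 to 0.85) for Slc40a1, 1.00 (0.30 to 1.74) for Hmox1 and 1.00 (0.28 to 1.77) for Slc11a1. In cluster 0, with 11 high-dose cells, Slc40a1 had a ratio of -0.86 (-1.96 to 0.07) and Slc11a1 one of -1.32 (-3.65 to 0.32). Markers of other cells moved with the groups over all neutrophil-like cells of this library. The general macrophage list stood at 125, 159 and 452 CPM in the vehicle, low dose and high dose. The hepatocyte list stood at 86.6, 123 and 501 CPM. The erythroid list stood at 74.6, 1648 and 209.6 CPM, highest at the low dose. The part of these lists in the ratios of cluster 3 and in the low-dose ratios of the whole class was not tested.

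**Figure D5:**
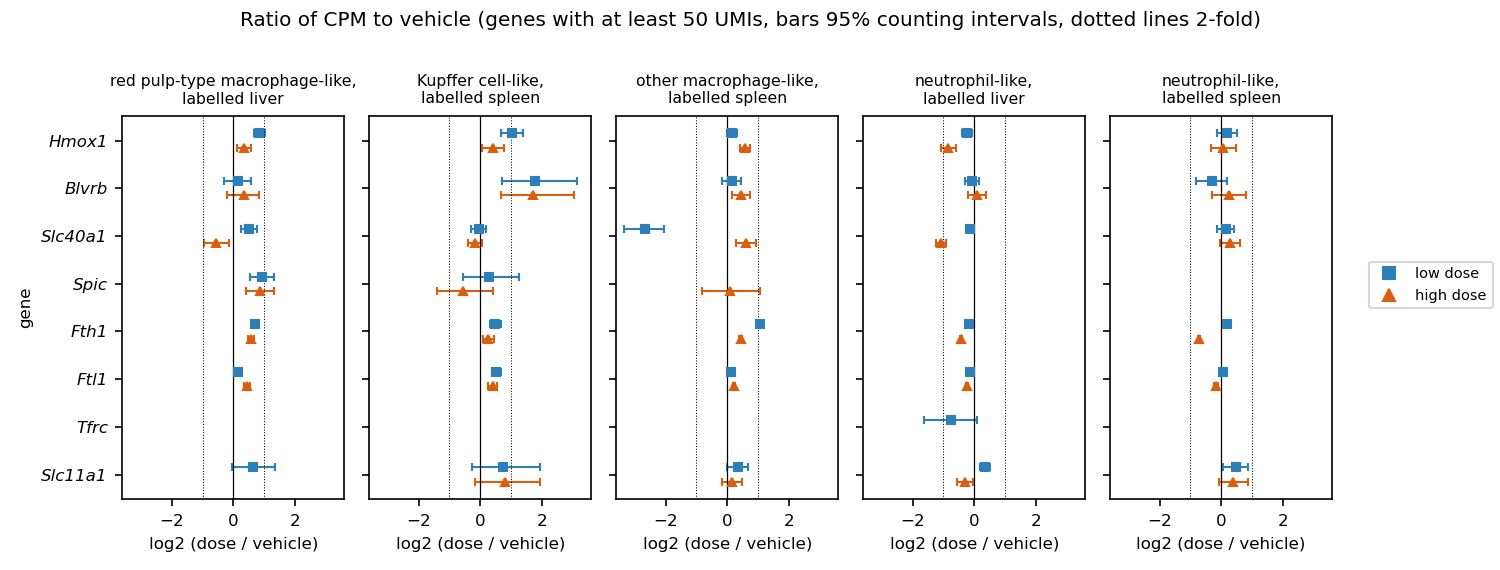
log2 ratio of CPM to the vehicle for genes that reached 50 UMIs, at the low (squares) and high dose (triangles), with 95% counting intervals; dotted lines mark a fold of 2. Slc40a1 lay at -2.67 in other macrophage-like cells at the low dose and at -1.09 in neutrophil-like cells of the liver-labelled library at the high dose.

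Less mature cells of the neutrophil line had lower Slc40a1, Hmox1 and Fth1 than neutrophil-like cells in both libraries, all groups summed. Immature neutrophil-like cells of the liver-labelled library (109, 107 and 20 cells) had Slc40a1 at 57.5, 58.0 and 31.5 CPM and Fth1 at 1670, 1775 and 1980 CPM. The 1 member of 6 past a fold of 2 at the low dose was Slc11a1, with 17 and 34 UMIs and a ratio of 1.27, where 0.783% of all genes tested passed. Without the cell with most Slc11a1 UMIs in each group its ratio was 1.23, but it then fell under the 50 UMIs needed. At the high dose 0 of 5 passed, where 5.05% of all genes did.

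In the spleen-labelled library the immature class (107, 136 and 70 cells) also held a cluster led by Cebpe, Fcnb and Elane. Slc40a1 was at 54.5, 57.5 and 45.8 CPM, and Tfrc at 13.5, 7.31 and 4.23 CPM from 23, 14 and 6 UMIs. Blvrb, at 21.1 CPM in the vehicle and 49.6 CPM at the low dose, had a ratio of 1.24 and was the 1 of 6 members past a fold of 2, where 1.43% of all genes tested passed. A single low-dose cell of 55904 UMIs held 58 of its 95 UMIs, and without the cell with most Blvrb UMIs in each group the ratio was 0.00333. At the high dose 0 of 5 passed, where 1.39% of all genes did.

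The class named granulocyte progenitor-like was not alike in the libraries, although Elane, Prtn3 and Ms4a3 were among its leading genes in both. In vehicle cells the immature neutrophil list of 7 genes stood at 53590 CPM in the liver-labelled and 988 CPM in the spleen-labelled library, and the neutrophil list at 275500 and 16400 CPM. The former values are close to those of the immature neutrophil-like class of the spleen-labelled library (45260 and 302600 CPM), so values under this name are not compared between libraries. Within each library Tfrc was higher in this class than in neutrophil-like and immature neutrophil-like cells. It was at 18.1, 25.0 and 15.9 CPM in the liver-labelled library (107, 98 and 43 cells) and at 32.4, 29.8 and 29.9 CPM in the spleen-labelled library (71, 90 and 14 cells). Ftl1 was at 2152, 2235 and 3009 CPM in the first and at 2761, 2387 and 2529 CPM in the second. Slc40a1 was nearly level over the groups of the liver-labelled library, at 50.5, 49.6 and 48.3 CPM, and was at 7.81, 5.04 and 8.98 CPM in the spleen-labelled library, from 13, 11 and 3 UMIs. No member passed a fold of 2 in the liver-labelled library at either dose (0 of 6, with 1.21% of all genes at the high and 0.788% at the low dose). None passed in the spleen-labelled library (0 of 3 at the high dose, with 6.65% of all genes, and 0 of 5 at the low dose, with 1.89%).

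Between the libraries, vehicle neutrophil-like cells differed in Fth1 and Slc40a1, the members whose interval left out 0. Fth1 was at 6046 CPM in the liver-labelled library and 11220 CPM in the spleen-labelled library, a log2 difference of 0.89 (0.87 to 0.92). Slc40a1 was at 233 and 142 CPM, a difference of -0.71 (-0.94 to -0.49). Ftl1, Hmox1, Slc11a1 and Blvrb had intervals that spanned 0. These values are sums over clusters that differed in level. Vehicle Fth1 ran from 2541 CPM (cluster 9) to 11700 CPM (cluster 3) in the liver-labelled library. In clusters 0, 3 and 16 of the spleen-labelled library it was at 14240, 6239 and 39490 CPM. The part of this mix of clusters in the differences between libraries was not tested. In vehicle T cell-like cells Fth1 was at 1577 and 1703 CPM (0.11, -0.04 to 0.26) and in vehicle B cell-like cells at 2496 and 2405 CPM (-0.05, -0.24 to 0.13). Both intervals spanned 0 and lay below the difference in neutrophil-like cells. In monocyte-like cells Fth1 was at 3149 and 4558 CPM (0.53). Tissue, preparation and library cannot be told apart here, since each tissue label is 1 library.

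The pathway around the members was followed with a list of 49 other genes of iron and heme handling. In the liver-labelled library the red pulp-type macrophages were the highest class for Trf (transferrin, 907 CPM), the heme and hemoglobin scavenging receptors Lrp1 (313 CPM) and Cd163 (136 CPM), the heme transporter Slc48a1 (233 CPM), Blvra (138 CPM), Hmox2 (115 CPM) and the ferritin receptor Ncoa4 (150 CPM). Kupffer cell-like cells were the highest class of the spleen-labelled library for Cd163 (1002 CPM), Lrp1 (672 CPM), Slc48a1 (265 CPM), Blvra (229 CPM), Hmox2 (138 CPM) and Ncoa4 (318 CPM), while Trf was highest in other macrophage-like cells (962 CPM). In both libraries Cd163, Lrp1, Slc48a1, Blvra and Hmox2 were thus highest in the class that was highest for Hmox1. For Hmox2 the next class was close. This was the monocyte-like class at 95.6 CPM in the liver-labelled and the plasmacytoid dendritic cell-like class at 130 CPM in the spleen-labelled library. No intervals were computed for these levels. Lcn2, the siderophore-binding lipocalin, and Ltf, lactoferrin, were highest in immature neutrophil-like cells of both libraries, and the hepatocyte hormone gene Hamp in hepatocyte-like cells (176 CPM).

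Most of these genes that were tested stayed within a fold of 2. In some comparisons the share past it was above that of all genes. In red pulp-type macrophages 0 of 5 tested passed at the high dose and 0 of 8 at the low dose, beside 5.89% and 5.56% of all genes. The largest excess over the vehicle at the high dose was that of Pcbp1, an iron chaperone (log2 ratio 0.55), and Slc48a1 (-0.87), Trf (-0.68) and Lrp1 (-0.61) lay furthest below. In Kupffer cell-like cells 4 of 15 passed upward at the high dose, near the 20.0% of all genes that passed there, and 0 of 7 at the low dose, beside 10.0%. Among the former, Lcn2 (1 and 105 UMIs) and Iscu (1 and 56 UMIs) had log2 ratios of 3.07 (0.56 to 8.38) and 2.16 (-0.38 to 7.49) against a vehicle of 1 UMI, and Blvra had 1.06 (-0.09 to 2.53).

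In all macrophage-like cells of that library 4 of 31 passed upward at the high dose, beside 4.50% of all genes, led by Lcn2 (25.2 and 217 CPM), Ltf (8.82 and 72.9 CPM) and Cd163 (56.7 and 282 CPM). At the low dose 4 of 26 passed, beside 3.11% of all genes, led by Lcn2 (264 CPM) and Hp (76.9 and 511 CPM). The other macrophage-like class alone had 3 of 20 past it upward at the low dose (Lcn2, Hp and Cp), beside 2.88%. At the high dose it had 2 of 25 (Ltf and Lcn2), beside 3.13%. Lcn2, Ltf and Hp are transcripts in which the neutrophil-like classes were far higher, and the neutrophil list moved the same way in these cells. The part of the neutrophil transcripts in these values was not tested. Cd163 stood at 1002 CPM in Kupffer cell-like and 12.4 CPM in other macrophage-like cells, all groups summed. Kupffer cell-like cells were 10 of 64 macrophage-like cells in the vehicle and 40 of 124 at the high dose. The part of this mix in the Cd163 sum was not tested.

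In neutrophil-like cells of the liver-labelled library 1 of 27 passed downward at the high dose, Fech, the last enzyme of heme synthesis (8.23 and 1.45 CPM, from 75 and 5 UMIs), beside 19.7% of all genes, and 0 of 27 passed at the low dose, beside 1.76%. Fech was highest in the erythroid-like cluster (35.5 CPM), and the erythroid list in these neutrophil-like cells stood at 149.2, 56.5 and 8.42 CPM, in the same order as Fech (4.70 CPM at the low dose). Its part in the Fech value was not tested. Lcn2 was above the vehicle by 0.63 at the high dose (8292 and 12810 CPM). In the spleen-labelled library 1 of 17 passed at the high dose, Hamp (4 and 139 UMIs, 109 of the 139 in 1 cell), beside 9.08% of all genes, and 0 of 20 at the low dose, beside 2.29%. Lcn2 stood at 8173, 10610 and 11850 CPM there, in the order vehicle, low dose, high dose. In immature neutrophil-like cells of the liver-labelled library 3 of 17 passed downward at the high dose, beside 5.05% of all genes. These were Slc25a28, Ireb2 and Trf, from 3, 3 and 12 high-dose UMIs. At the low dose 1 of 21 passed upward, beside 0.783%. Those of the spleen-labelled library had 0 of 20 at each dose. Of 23 to 26 tested in granulocyte progenitor-like cells, at most 1 passed in each comparison (0.788% to 6.65% of all genes).

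The genes whose pattern over clusters was most like each member's were read from 40 clusters with at least 50 cells (23 and 17), by Pearson's r of log2(CPM + 10). The clusters share libraries, depth and, within a library, mice, so the values are descriptions. Hmox1 was most like Clec4n (0.91), Il18bp (0.88) and Ftl1-ps1 (0.88), and Spic most like Kcnj10 (0.92), Epb41l3 (0.91) and Fcna (0.90). Slc40a1 was most like P2ry13 (0.91), B430306N03Rik (0.86) and the member Slc11a1 (0.85). Slc11a1 was itself most like Slc15a3 (0.95), Fcgr4 (0.94) and Lrrc25 (0.94). The ferritin chains were close to each other (0.85), Fth1 being most like Basp1 (0.89), Smox (0.89) and Cstb (0.86) and Ftl1 most like Rab32 (0.91), Plin2 (0.90) and Ftl1-ps1 (0.89). Tfrc stood apart, with r from -0.45 to 0.29 against the other members, and was most like Tfdp2 (0.84), Ftsj1 (0.82) and Sinhcaf (0.82). Blvrb had the weakest likeness, to Zdhhc14 (0.74), Glul (0.73) and Tcf7l2 (0.73).

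Ftl1-ps1 is a near copy of Ftl1, and reads could be split between them. It had 1171 UMIs beside 183242 of Ftl1 in the liver-labelled library and 821 beside 117389 in the spleen-labelled library.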

How the data were processed

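The values deposited by the authors are raw counts, not normalized, of UMIs for each gene and hashtag in barcodes that passed cell detection, made with Cell Ranger (5.0.0 per the file headers, 6.0.0 per the submitters' processing notes) on mm10. Every barcode had at least 500 UMIs, and no mitochondrial filter had been applied, so dying cells and free RNA can be among them. Counts are whole transcripts tagged near the 3′ end, which limits comparison between genes.

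Barcodes were assigned with HTODemux (Seurat 5.3.0, R 4.3.3, quantile 0.99), and doublets between hashtags were removed. Each library was normalized with SCTransform (sctransform 0.4.2), reduced to 30 principal components and clustered at resolution 0.8, with all 57 iron genes left out of the variable features. A cluster was named where at least 3 markers of a list were raised by a log2 fold of 1 and seen in 20% of its cells. Scrublet (scanpy 1.11.5) marked 248 cells (2.59%) in the liver-labelled library and 1 (0.0207%) in the spleen-labelled library, where it did not work, so its calls were removed in an alternative only. Doublets within a hashtag can remain.

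Counts were summed per class and group, with exact Poisson, conditional binomial (ratios) and Clopper-Pearson (shares) intervals at 95% (scipy 1.17.1, Python 3.11.15). On data simulated for neutrophil-like cells, high dose against vehicle, intervals held the true ratio for 95.73% of 7120 genes in the liver-labelled library and 95.18% of 3192 in the spleen-labelled library, and 200 of 200 changed genes had the right direction in each. The counts were drawn from the Poisson law that the intervals assume, and the changed genes had large folds. This checks the calculation only, since uneven spread of UMIs over cells was not simulated.

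The members, the lists and the comparisons were chosen with earlier results of these data known. Named genes are the 8 members, the 3 genes most like each, markers that check a class and, of the 49 other iron genes, up to 3 with the largest excess and 3 with the largest deficit per comparison among those with at least 50 UMIs. The other macrophage-like class, the removal of the cell with most UMIs (within cluster 3 too) and the erythroid limit were added after the data were seen. Other alternatives were MULTIseqDemux, a cell filter (at least 200 genes, under 10% mitochondrial UMIs), resolutions of 0.4 and 1.6, iron genes kept as variable features, totals without the 20 most abundant genes, a mean over cells, a fold of 1.5, no UMI minimum and other thinning. Sequences are from GENCODE mouse release M21 transcripts. Protein and promoter sequences were not used here.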

Additional observations from a re-analysis of the deposited data

Results flagged for a closer look

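In 3 comparisons a ferritin gene lay on opposite sides of the vehicle in the libraries. With 1 pooled sample per group and library, these differences were not tested. In neutrophil-like cells at the low dose the log2 ratio of Fth1 was -0.168 in the liver-labelled library and 0.191 in the spleen-labelled library. Within clusters 0, 3 and 16 of the latter it was -0.27, -0.10 and -0.08. Cluster 13 there, with Fth1 at 18790 CPM, held 24.4% of low-dose and 0.784% of vehicle cells. Within clusters of the liver-labelled library the ratio ran from -0.43 (cluster 4) to 0.29 (cluster 5). In granulocyte progenitor-like cells the log2 ratio of Ftl1 was 0.483 in the liver-labelled library and -0.127 in the spleen-labelled library at the high dose, and 0.0544 and -0.21 at the low dose. The granulocyte progenitor-like class was not alike in the libraries: in vehicle cells the immature neutrophil list stood at 53590 CPM in the liver-labelled and 988 CPM in the spleen-labelled library. Cluster 11 of the immature neutrophil-like cells of the spleen-labelled library was led by Cebpe, Fcnb and Elane. Its Ftl1 ratio was 0.492 at the high dose, on the same side as the granulocyte progenitor-like class of the liver-labelled library. At the low dose it was -0.118 (-0.214 to -0.0224), on the opposite side.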

How the results depend on the processing

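Of 271 alternatives for counts and shares, 187 stayed within 1.5 times the reported count or within the counting interval and 84 moved. Of 80 alternatives for single ratios, 67 stayed within their interval, 10 moved and 3 reversed. The cause was not tested. The counts of members past a fold of 2 that moved are given with the reported count in parentheses.

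With MULTIseqDemux, red pulp-type macrophage-like cells had 1 at the low dose (0), all macrophage-like cells of the spleen-labelled library 2 at the high (1) and 2 at the low dose (0), and immature neutrophil-like cells there 0 at the low dose (1). With the cell filter, the red pulp-type class had 1 at each dose (0), Kupffer cell-like cells 1 at the low dose (2), all macrophage-like cells of the spleen-labelled library 2 at the high (1) and 1 at the low dose (0), other macrophage-like cells 1 at the low dose (2), and immature neutrophil-like cells 0 at the low dose in both libraries (1). The Kupffer cell-like class had 3 vehicle cells with that filter. With Scrublet calls removed the red pulp-type class had 1 at the low dose (0). Resolution 0.4 gave 1 in Kupffer cell-like and 1 in other macrophage-like cells at the low dose (2), 2 in all macrophage-like cells of the spleen-labelled library (1) and 0 in neutrophil-like cells of the liver-labelled library (1), both at the high dose. It left no immature neutrophil-like class in the liver-labelled library. Resolution 1.6, and iron genes kept as variable features, gave 1 in Kupffer cell-like cells at the low dose (2), and the latter gave 0 in both immature classes at the low dose (1). Without the 20 most abundant genes, all macrophage-like cells of the spleen-labelled library had 1 at the low dose (0) and neutrophil-like cells of the liver-labelled library 0 at the high dose (1). As a mean over cells the count was 2 in Kupffer cell-like cells at the high dose (1), 0 in all macrophage-like cells of that library at the high dose (1), 1 in other macrophage-like cells at the low dose (2), 2 and 1 in neutrophil-like cells of the liver-labelled library at the high (1) and low dose (0), 1 in those of the spleen-labelled library at the high dose (0), 1 in immature cells of the liver-labelled library at the high dose (0) and 0 in those of the spleen-labelled library at the low dose (1). A fold of 1.5 gave 1 and 4 in the red pulp-type class, 2 in Kupffer cell-like cells at the high dose, 4 and 4 in all macrophage-like cells, 1 in other macrophage-like cells at the high dose, 2 and 1 in neutrophil-like cells of the liver-labelled library, 1 in those of the spleen-labelled library and 1 in immature cells of the liver-labelled library, both at the high dose. No UMI minimum gave counts of 1 to 3 where the count moved, for instance 2 and 1 in the red pulp-type class and 3 in immature cells of the liver-labelled library at the low dose. Without the cell with most UMIs of a gene, the count was 1 in the red pulp-type class at the high dose (0), 2 in Kupffer cell-like (1) and 3 in all macrophage-like cells (1) at the high dose, and 0 in both immature classes at the low dose (1).

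Thinned to 1000 UMIs and unthinned, the shares of red pulp-type macrophage-like cells with Hmox1, Slc40a1 and Spic were 74.6% and 87.4%, 54.9% and 60.7%, and 48.4% and 62.8%, and those of Kupffer cell-like cells 63.0% and 87.3%, 91.8% and 98.7%, and 20.5% and 74.7%. Of the 24 most-like genes, 4 remained over clusters of the liver-labelled library alone, 9 over those of the spleen-labelled library alone and 12 with a pseudocount of 1. Blvrb of immature neutrophil-like cells at the low dose, spleen-labelled library, reversed to -0.272 with MULTIseqDemux, -0.342 with the cell filter and -0.0536 with iron genes kept as variable features.

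No paired analysis was possible because each group was 1 pooled sample per library and no test was made. Depth limits Spic and Tfrc outside the classes where they were highest, and the 10 vehicle Kupffer cell-like cells limit every ratio of that class.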
